A study of Mus musculus with 2 samples.

Results

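The cytosolic ribosomal protein genes code for the proteins of the ribosome that works outside mitochondria. They were chosen by name, as genes whose current symbol is Rpl or Rps with a number, Rplp0 to Rplp2 or Rpsa, without kinases and pseudogenes, and with at least 1 probe set that the array's annotation assigns to a single gene symbol. This gave 47 of the 12393 genes with such a probe set, 26 of the large and 21 of the small subunit, on 99 probe sets. The annotation assigns the probe sets of another 28 ribosomal protein genes to several symbols, mostly pseudogenes, and those genes are not among the 47.

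The samples were teratomas, tumours in which transplanted pluripotent stem cells have differentiated into many tissues. The B6 ES pool held RNA from 2 tumours grown from C57BL/6 (B6) embryonic stem cells. The EiPS pool held RNA from 2 tumours of EiPS cells, called regression teratomas in the series' design text. EiPS cells were induced from differentiated cells, belong to the same strain, and are also labelled 1E12 iPS, which names 1 line. Both kinds of cells were placed under the skin of male B6 mice and the tumours were taken at week 6. Each pool was measured on 1 Affymetrix array, so there is no replicate check and no test: the values compare the 2 pools. All 8 ectodermal, 7 mesodermal and 8 endodermal marker genes looked up were above the signal floor, explained next, on both arrays. Their median log2 differences were 0.32, 0.042 and 1.08. Within the ectodermal list, the keratins and Gfap were higher in the EiPS pool, and Tubb3 (-0.88), Nefl (-1.47) and Stmn2 (-1.41) were lower. The signals of that list summed to 16440 for B6 ES and 11251 for EiPS.

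Values are probe set signals on a linear scale, and of a pair of signals the first is that of the B6 ES pool. Differences are on the log2 scale and run from the B6 ES to the EiPS pool, so that they are positive where the EiPS signal is higher, and 1 stands for 2-fold. Signals of different probe sets cannot be read as relative amounts of their transcripts, since each probe set binds with its own strength. A signal under 25.4, the 90th percentile over 68 probe sets of receptors presumed silent in such tumours, was treated as not measured. All 47 ribosomal protein genes were above this floor on both arrays, as were 10231 of all genes, and 10988 genes were above it on 1 array or more and are called measured.

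Ribosomal proteins fold around the ribosomal RNAs, 18S rRNA in the small subunit that reads the mRNA and the larger rRNAs in the subunit that joins amino acids. Cells make the proteins in matched amounts, and much of the mRNA in a growing cell codes for them. Their mRNAs begin with a C followed by a run of pyrimidines (C or T in the DNA), called the 5′ terminal oligopyrimidine (TOP) tract, through which the growth regulator mTOR controls their translation. A few members have diverged copies with restricted expression, such as Rpl3l in striated muscle.

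Runs of pyrimidines lie at the annotated starts of many of these genes. The sequences that follow were taken from RefSeq promoters (build GRCm38.p6) and run from 25 bases before the start to 20 bases from it on, so that the start is the first base after the opening 25. They show 5 members with a long run, of which Rpl22l1 is a diverged copy, and then Rpl39, Rpl39l and Rpl3l, members whose signals stood apart from the rest. Capitals mark the longest run of C and T, of 5 bases or more, that touches the 5 bases before or the 6 bases from the start.
Rps18: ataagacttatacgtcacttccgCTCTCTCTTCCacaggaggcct
Rps10: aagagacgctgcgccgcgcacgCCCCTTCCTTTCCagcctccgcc
Rpl35: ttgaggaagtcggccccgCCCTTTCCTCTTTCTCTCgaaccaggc
Rps6: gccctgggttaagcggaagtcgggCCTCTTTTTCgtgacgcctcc
Rpl22l1: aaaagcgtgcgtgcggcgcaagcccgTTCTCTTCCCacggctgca
Rpl39: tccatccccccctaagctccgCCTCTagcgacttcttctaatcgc
Rpl39l: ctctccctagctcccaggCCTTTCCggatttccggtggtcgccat
Rpl3l: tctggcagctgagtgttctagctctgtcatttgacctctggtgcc

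The Rps18 sequence lies at chr17:33955646-33955690 on the minus strand, Rps10 at chr17:27635225-27635269 (minus), Rpl35 at chr2:39005112-39005156 (minus) and Rps6 at chr4:86857348-86857392 (minus). Rpl22l1 lies at chr3:28805483-28805527 (plus), Rpl39 at chrX:37085203-37085247 (minus), Rpl39l at chr16:10170203-10170247 (plus) and Rpl3l at chr17:24727801-24727845 (plus), which is 1 of its 2 annotated starts. The capitalised run measures 11 bases in Rps18, 13 in Rps10, 18 in Rpl35 and 10 in Rps6, of which 9, 10, 11 and 9 lie from the annotated start on. In Rpl22l1 all 10 bases lie after a first base g. The longest run at the Rpl3l start is 4 bases. Of the 42 members with a sequence in the table, 18 (42.9%) had a run of at least 8 at one of their starts, against 11.4% of all 27025 genes in it. The letters CCGGAA, the core that ETS-family factors recognise, occurred on either strand of the 300 bases around the start in 28 of the 42 members (66.7%) and in 16.7% of all genes. The 18 members with the long run had a median log2 difference of 0.32 and the 24 others one of 0.33.

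Ribosomal protein genes had slightly higher signals in the EiPS pool, nearly all of them by a like amount, with the arrays as deposited. Most were also higher under 3 of 4 other scalings, by smaller amounts, but with equal hybridisation controls they were split. As deposited, 45 of 47 members were higher, where 56.3% of all measured genes were. Only Rpl3l and Rpl39 were lower (background 43.7%). The median log2 difference was 0.32, against 0.066 over all measured genes. At least 25% higher were 23 members (background 29.2%), and at least 20% lower, the same fold in the other direction, were 2 (background 19.8%). The 2-fold mark was passed upwards by 2, Rpl39l and Rpl12 (background 5.82%), and downwards by 2, Rpl3l and Rpl39 (background 3.04%).

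The size of this shift depended on the scaling of the arrays. The 18 probe sets of the bacterial and phage controls bioB, bioC, bioD and cre, which the array's maker supplies to be added in fixed amounts at hybridisation, were all higher on the EiPS array, with a median of 0.28. Whether and how they were added is not given in the sources used here. With the arrays set to equal signals of these controls, the members' median was 0.038, with 26 higher and 21 lower, and the median of all genes was -0.21, with 32.6% higher. Under equal array medians the members' median was 0.20 (43 higher, 4 lower) and the all-gene median -0.057, under loess scaling 0.19 (45 and 2) and 0.027, and under quantile normalization 0.096 (39 and 7) and 0.0012. The members thus lay above the median of all genes by 0.25 as deposited, 0.25 with equal medians and equal hybridisation controls, 0.16 with loess scaling and 0.094 with quantile normalization. Of the 100 brightest probe sets 30 were those of members, so at high signals the last 2 scalings were set in part by the members themselves. Relative to other genes the members were on the higher side under all 5 scalings, and under equal hybridisation controls their own signals were split.

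**Figure D1:**
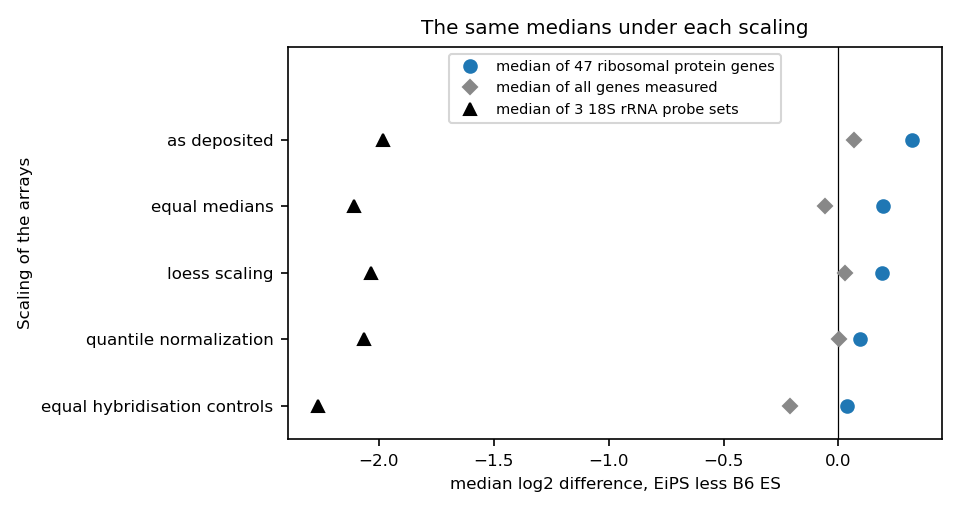
Median log2 difference (EiPS pool less B6 ES pool, x axis) of the 47 ribosomal protein genes (circles), of all measured genes (diamonds) and of the 18S rRNA probe sets (triangles), under 5 scalings of the arrays (rows). The ribosomal protein median lies to the right of the all-gene median in every row, but at 0.32 as deposited and 0.038 with equal hybridisation controls, while 18S lies near -2 throughout.

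The 18S rRNA probe sets went the other way, and by much more. The probe set at the 5′ end of 18S had signals of 10691 for B6 ES and 2705 for EiPS, 3.95-fold lower. The middle probe set had 2949 and 653, and the one at the 3′ end 2802 and 1069, which are 4.52-fold and 2.62-fold lower. The EiPS array was thus the lower at all 3, with a median log2 difference of -1.98 that stayed between -2.27 and -1.96 under the other scalings and with log2(signal + 64). The ribosomal protein median lay 2.30 above it, and only Rpl3l, at -1.67, lay below the least changed 18S probe set, at -1.39. 18S rRNA has no poly(A) tail, and the labels name only the maker's standard cRNA protocol, and how it came to be labelled is not given in the sources used here.

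Ratios of 3′ to 5′ signals, for Actb and Gapdh a sign of RNA quality, differed little between the arrays for these 2 genes. They differed more for 18S and for dap, which is not tumour RNA. The ratio of the 3′ to the 5′ control signal was 1.35 for B6 ES and 1.49 for EiPS for Actb, and 0.829 and 0.798 for Gapdh. The same ratio was 0.262 and 0.395 for 18S, and 2.27 and 3.46 for dap, or 2.51 and 4.05 on a second version of the dap probe sets. The 3 Actb control probe sets had a median difference of 0.012 and the 3 Gapdh control probe sets one of -0.049. The 24 probe sets of the dap, lys, phe and thr controls, which are made to be added to RNA before labelling, had a median of -0.32, with 22 lower. The part of these differences in the 18S and ribosomal protein values was not tested.

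**Figure D2:**
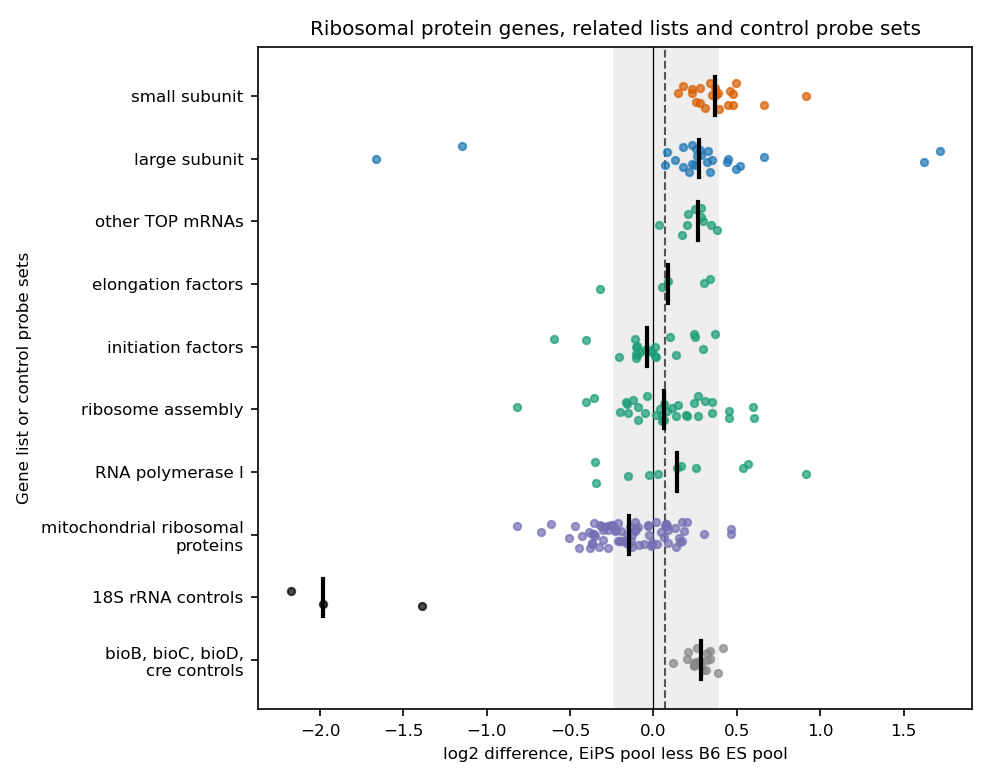
Log2 difference (EiPS pool less B6 ES pool, x axis) of each measured gene in the ribosomal protein and related lists, and of control probe sets; each point is 1 gene or probe set, the black bar is the median, the dashed line is the median of all measured genes and the grey band their middle 50 percent, with the arrays as deposited. The small subunit lies in a narrow band about 0.37 and the large subunit about 0.27 with 4 genes far outside, while the 18S controls lie between -2.18 and -1.39.

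By single-symbol probe sets the small subunit was the more uniform. The wider spread of the large subunit rests in part on dim probe sets. With the brightest probe set of either kind, Rpl12 was at 0.34 and Rpl39 at 0.13, while Rpl3l and Rpl39l still stood apart. All 21 of its members were higher in the EiPS pool with the arrays as deposited, from 0.15 for Rps2 to 0.92 for Rps25, with a median of 0.37, and 13 were at least 25% higher (background 29.2%). With equal hybridisation controls the median was 0.085, and Rps2, Rps6, Rps15, Rps24, Rps26, Rps28 and Rps29 were below 0. With quantile normalization Rps2, Rps24 and Rps28 were below 0. Rps29 was at 0, which this method fixes in advance for a probe set with the highest signal on both arrays. Rps7 stood at the median, with signals of 12369 for B6 ES and 15964 for EiPS. Rps19, a gene mutated in the inherited anaemia named after Diamond and Blackfan, had 7962 and 11242. Rps3, a protein of the mRNA entry site, had 7327 and 10211. Rps10, its neighbour on the small subunit, had 12262 and 16874. Each of these 3 was higher by 1.38-fold to 1.41-fold, and each was higher under every scaling and probe set rule that gave it a value.

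Rps9, which helps to hold decoding accurate, had signals of 7123 and 9896, 1.39-fold higher. Rps4x, the X-linked copy of S4, had 11401 and 14913. Rps27l, a copy of Rps27 known as a p53 target, had 4631 and 6314. Rps20 had 13963 and 18102, and Rps18 had 13280 and 17450. At the low end, Rps28, with 14801 and 16724, and Rps2, with 11309 and 12510, were higher by 1.13-fold and 1.11-fold. Rps24 had 12529 and 14685, 1.17-fold higher, by its brightest probe set. Other Rps24 probe sets of like brightness gave 1.63-fold, 1.42-fold and 1.33-fold, so its place among the members depends on the probe set. Rps6, the substrate of the S6 kinases, had 822 and 980 by its brightest single-symbol probe set, a log2 difference of 0.25. The others, Rps3a1, Rps14, Rps15, Rps26, Rps29 and Rpsa, lay between 0.23 and 0.35 by their brightest single-symbol probe sets. A second bright probe set of Rps15 had 6909 and 6916, a difference of only 0.0015, so the higher call of Rps15 depends on the probe set. The highest signal on both arrays, 17914 and 20986, was that of a probe set of Rps29.

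The large subunit had the same central band with a slightly lower median of 0.27, which was -0.013 with equal hybridisation controls. The difference of its median from that of the small subunit has no replicate check. Of its 26 members, 24 were higher (background 56.3%) and 10 at least 25% higher (background 29.2%) with the arrays as deposited. Rpl19 lay next to the median, at 0.26, with 9688 for B6 ES and 11620 for EiPS. Rpl35, at the mouth of the exit tunnel, had 11519 and 16245, 1.41-fold higher. Rpl13a, known also for a part in translational silencing, had 14425 and 19546, or 0.44. Its other single-symbol probe sets gave 0.45, 0.83 and 0.98. Rpl22, an RNA-binding protein that is dispensable in most cells, had 6220 and 8470. Its copy Rpl22l1 had 5485 and 7847, 1.43-fold higher, so that both members of the pair had like differences. Rpl37 had 1565 and 2478.

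The lowest differences of the large subunit's bright probe sets were those of Rpl7a, with 11033 and 12485, of Rpl8, with 8601 and 9741, and of Rpl7, with 9885 and 11448. These 3 were higher by 1.13-fold to 1.16-fold as deposited. They were below 0 with equal hybridisation controls, and Rpl7a also with quantile normalization. Rpl41, the smallest ribosomal protein, had 12903 and 15141. The remaining bright members, Rpl4, Rpl6, Rpl10a, Rpl27, Rpl37a and Rpl38, lay between 0.23 and 0.35.

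The stalk of the large subunit recruits elongation factors, and Rplp0 and Rplp2 had differences near the median. Rplp0, the base of the stalk, had signals of 11456 and 14311 and, at 0.32, the median difference of all 47 members. Rplp2, an acidic stalk tip protein, had 13488 and 16415, or 0.28. Its partner Rplp1 is seen only by a probe set shared with a pseudogene, which gave 12512 and 14873, or 0.25. Rpl12, which sits at the stalk base, had 148 and 455 by its single-symbol probe set, 3.08-fold higher, but its 2 shared probe sets gave 7043 and 9132, and 12125 and 15297, or 0.37 and 0.34.

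Rpl11 and Rpl5 form, with 5S rRNA, the particle that restrains the p53 inhibitor Mdm2. Rpl11 had signals of 8765 and 11063, 1.26-fold higher. Rpl5 has shared probe sets only, and they disagreed: the brightest gave 10882 and 14683, higher in the EiPS pool, and the other two gave 1350 and 1022, and 1688 and 953, lower by 1.32-fold and 1.77-fold.

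**Figure D3:**
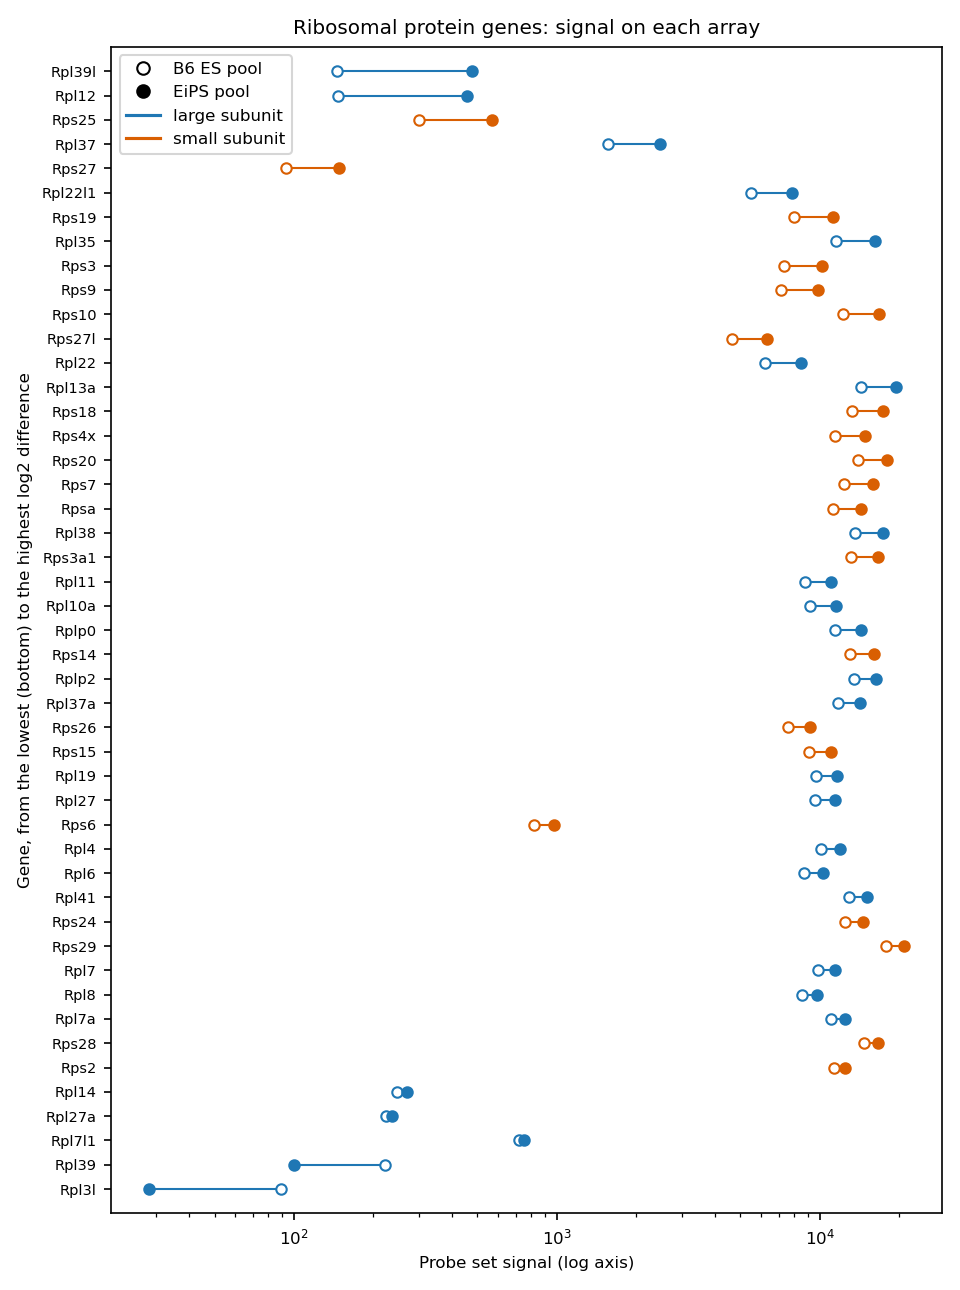
Signal (log axis) of each of the 47 ribosomal protein genes on the B6 ES array (open circles) and the EiPS array (filled circles), ordered by log2 difference and coloured by subunit; each gene is shown by its single-symbol probe set of highest mean signal. Signals above 4000 differ by a like, small step to the right, and the 4 genes that differ by at least 2-fold, Rpl39l and Rpl12 at the top and Rpl39 and Rpl3l at the bottom, all have signals under 500.

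Among bright members, each read by its brightest single-symbol probe set, the spread was small. The 36 members with a mean signal of at least 4000 were all higher as deposited, with differences from 0.15 to 0.52 and a median of 0.32. The 339 other genes of that brightness had a median of 0.020, with 175 higher and 164 lower, and their differences ran from -2.09 to 1.18. Where members had several probe sets with mean signals of at least 1000, the SD of the differences between probe sets of 1 gene was 0.12 over 18 genes, against 0.19 over 585 genes of any kind. Members whose differences lie closer together than that SD are not told apart here. Those further apart have no replicate check either, since the SD leaves out variation between tumours, arrays and labelling.

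Rpl3l had the lowest difference of all members. This striated muscle copy of Rpl3 had signals of 89.4 for B6 ES and 28.2 for EiPS, 3.17-fold lower, and its bright relative Rpl3, on a shared probe set, had 10389 and 13898, higher by 0.42. The EiPS signal of Rpl3l lies just above the floor of 25.4. With a higher floor, the 98th percentile (49.6), the difference was -0.85, a bound, and with log2(signal + 64) it was -0.74, so its 2-fold call does not hold with that floor or that pseudocount. It was -1.67 with no floor and with the 75th percentile as the floor. Skeletal muscle markers were lower as well: 15 of 15 were lower in the EiPS pool (background 43.7%), 10 of them 2-fold or more (background 3.04%). Their median was -1.38, with a summed signal of 96950 against 46095 and none under the floor. Myh4, a myosin of fast fibres, had 4324 and 198, and Myog, a regulator of muscle differentiation, 4482 and 3360. In pooled tumour RNA, fewer cells of a type and less RNA per cell cannot be told apart, and the part of muscle content in the Rpl3l value was not tested.

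Rpl39l had the highest difference. This copy of Rpl39, known for its expression in male germ cells, had signals of 146 and 478, 3.28-fold higher in the EiPS pool. Its log2 difference was 1.72 as deposited and between 1.37 and 1.72 under the alternatives. It has 1 probe set. Of 10 testis germ cell markers, 5 were under the floor on both arrays, among them the spermatid genes Prm2 and Tnp1. Only Stra8, at 37.5 and 73.9, and Prm1, at 39.6 and 48.6, were above it on both. Ddx4, at 14.2 and 74.9, Dazl and Sycp3 were above it on the EiPS array only, so the list has no count of direction here. All 10 markers summed to 175 and 354. Of 9 pluripotency genes looked up, 7 were above the floor on the EiPS array only, so this list has no count of direction either. Dppa5a, at 106 and 1052, and Utf1, at 28.0 and 86.3, were above it on both. Zfp42 had 3.99 and 32.1, at least 1.26-fold higher. The signals of all 9 summed to 224 and 1664. The part of either marker list in the Rpl39l value was not tested.

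Rpl39 itself, a small protein of the exit tunnel, differed by probe set. Its single-symbol probe set had 223 for B6 ES and 100.5 for EiPS, 2.21-fold lower, while a shared probe set had 13996 and 15310, higher by 0.13. The lower call of Rpl39 thus holds for 1 dim probe set and is opposite in the bright one. Rpl7l1, a relative of Rpl7 found in nucleoli, had 717 and 752 and a second probe set that was lower by 0.087, so it had no settled direction.

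Dim single-symbol probe sets stood in for several other members whose bright probe sets are shared. Rpl14 had 248 and 271, against 10114 and 13061 on its brightest shared probe set. Rpl27a had 224 and 237, against 11601 and 14580. Rps25 had 301 and 568, a log2 difference of 0.92, against 7548 and 9928, or 0.40. Rps27 had 93.8 and 148, 1.58-fold higher, against 8819 and 13564, 1.54-fold higher. Of the 10 members with a mean signal under 1000, 7 have such a shared probe set. With the brightest probe set of either kind, an alternative added after the data were seen, 46 of the 47 members were higher, only Rpl3l was lower, 1 was at least 2-fold higher and the median was 0.33. Of the 28 genes left out for want of a single-symbol probe set, the 26 whose shared probe set names no second ribosomal protein gene were all higher, by 0.14 to 0.53, with a median of 0.32.

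Many dim probe sets of genes that also have bright ones gave larger differences, but not all did. For 6 members a probe set with a mean signal under 1000, above the floor on both arrays, could be set beside one above 1000. Of these 8 dim probe sets 7 were higher, 5 by 2-fold or more, and 1 was lower, with a median of 1.49. The corresponding 1432 probe sets of 909 other genes had a median of -0.038, of which 104 were higher and 63 lower by 2-fold or more. A further 3 dim probe sets, of Rpl35 and Rps18, passed the floor on the EiPS array only and are not counted. Rpl41 had 85.0 and 392 on one such probe set and 101 and 407 on another, 4.62-fold and 4.01-fold higher, where its brightest differed by 1.17-fold.

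Rps24 had 65.1 and 312 on a dim probe set, 4.79-fold higher, and Rps9 61.2 and 209. Rps10 had 53.8 and 125, and Rpl35 had 23.0, under the floor, and 57.6. Rps20 went both ways, with 77.6 and 41.1 on one dim probe set and 74.8 and 101 on another. Rpl37a had 604 and 682 on its dim probe set, a log2 difference of 0.18, where its bright ones gave 0.28 and 0.25. The probe sets of Rpl41, Rps24, Rps9 and Rps20 differed by over 1 among themselves, the only 4 of the 20 members with several probe sets measured on each array to do so. What part of the transcripts the dim probe sets read was not tested.

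**Figure D4:**
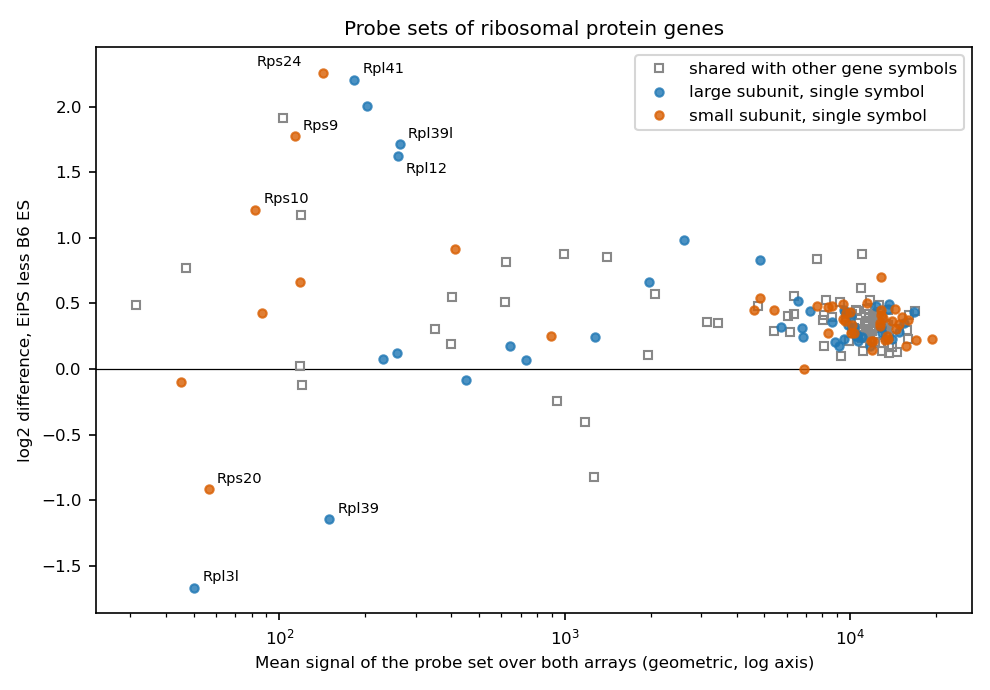
Log2 difference (EiPS pool less B6 ES pool, y axis) against mean signal over both arrays (x axis, log axis) for probe sets of ribosomal protein genes above the floor on both arrays; circles are single-symbol probe sets by subunit and squares are probe sets shared with other symbols. Above a signal of 4000 the probe sets lie between 0.0015 and 0.88, and below 1000 they spread from -1.67 to 2.26.

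Members mutated in Diamond-Blackfan anaemia did not stand apart. Of 19 such genes listed, 11 have a single-symbol probe set, and all 11 were higher as deposited (background 56.3%), with a median of 0.34. They ran from Rps28 at 0.18 to Rps27 at 0.66. Rps26, with 7585 and 9193, and Rpl27, with 9598 and 11448, lay in between.

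The 10 other mRNAs listed for a TOP tract had a like difference. The list does not hold every such mRNA. Genes with elongation factor symbols were listed apart, whether or not their mRNAs have such a tract. Of these, Eef1a1 (0.086) and Eef2 (0.050) lay near the median of all measured genes, 0.066, so the 10 do not stand for all TOP mRNAs. All 10 were higher as deposited (background 56.3%), with a median of 0.27 that was -0.017 with equal hybridisation controls. Npm1, a nucleolar chaperone, had 5689 and 7414, and Eif3l, an initiation factor subunit, 1869 and 1910, the highest and lowest of the list. Fau, whose product is split into Rps30 and a ubiquitin-like protein, had 9488 and 12088, or 0.35. Naca and Btf3, which guard nascent chains at the ribosome, had 7691 and 10870, and 4916 and 5302.

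The lists of elongation and initiation factors had lower medians than the ribosomal protein genes. The 5 genes listed by elongation factor symbols had a median of 0.086, below 0 with equal medians, loess scaling and equal hybridisation controls. As deposited 4 were higher (background 56.3%) and 1 lower. Eef1b2 had 7477 and 9456 (0.34), and Eef1d 3189 and 3938 (0.30). Eef1a1 had 15717 and 16679 (0.086), and Eef2 7155 and 7406 (0.050). Eef1e1, listed by its symbol only, was the lower one, at 1170 and 938 (-0.32), and the median includes it. Eef1a2, the form of muscle and neurons, was 1.31-fold lower, at 1884 and 1440. Of 22 initiation factor genes, 9 were higher (background 56.3%) and 13 lower (background 43.7%), with a median of -0.036. These counts leave out the initiation factor genes listed with the other TOP mRNAs, all of them higher. Those were Eif4b (0.21), Eif3e (0.34), Eif3f (0.29), Eif3h (0.20) and Eif3l (0.032), so the lean of the 22 depends on how the lists were split. Eif6, which keeps the subunits apart, had 1308 and 1692, and Eif2b4, a subunit of the exchange factor, 1297 and 859.

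Genes that build ribosomes had no common direction. Of 34 assembly factor genes 22 were higher (background 56.3%) and 12 lower (background 43.7%). Their median was 0.062 as deposited, -0.063 with equal medians and -0.22 with equal hybridisation controls. Noc2l had 253 and 384, 1.52-fold higher, and Bysl, needed for the small subunit, 579 and 328, 1.77-fold lower. Of 11 genes of RNA polymerase I, which makes the 18S precursor, and its factors, 7 were higher (background 56.3%) and 4 lower (background 43.7%). Their median was 0.14 (-0.14 with equal hybridisation controls). Taf1a had 89.2 and 168, and Taf1b 190 and 149. No gene of either list reached 2-fold.

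Mitochondrial ribosomal protein genes leaned the opposite way from the cytosolic ones. Of 74 such genes 53 were lower (background 43.7%) and 21 higher (background 56.3%) for EiPS. Their median was -0.14 (-0.43 with equal hybridisation controls), and 16 were at least 20% lower, near the background of 19.8%. Of other genes, 43.4% were lower at mean signals of 100 to 1000, with a median of 0.067. At 1000 to 4000, 56.0% were lower, with a median of -0.053. Mrps31 had 582 and 329, 1.77-fold lower, and Mrpl24 1374 and 1896, 1.38-fold higher. Large and small mitochondrial subunits had medians of -0.16 and -0.094. None of the 74 reached 2-fold in either direction.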

How the data were processed

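The authors deposited a linear intensity for each probe set. The submitters' processing notes name Affymetrix Expression Console and MAS5, without versions or settings. Both arrays had a 2% trimmed mean of 500.2, and no further scaling was applied. RNA of 2 tumours was pooled per array and 5 µg of total RNA was labelled, per the labels. Of 22690 probe sets, 20380 had 1 gene symbol, updated by identifier for 20351 with a RefSeq table (GRCm38.p6). Each gene was read from the brightest of its single-symbol probe sets by mean log2 signal. Signals under the floor on 1 array were replaced by it ("at least"). No test or interval was computed, since each group has 1 array, whose number limits the precision. Values were given for members at least 2-fold different, the 10 highest and 10 lowest differences, diverged copies and their partners, stalk and 5S-particle proteins, subunit medians and members whose probe sets differed by over 1; other lists give their highest and lowest gene. Further members and genes were named after their values were seen. The members and lists were chosen with earlier results of these data known. Alternatives were other floors, log2(signal + 64), 4 scalings (loess span 0.4), probe set averages and leaving out or adding shared probe sets. The procedure was tested on simulated data. Python 3.11.15, pandas 2.3.3 and statsmodels 0.14.6 were used.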

Additional observations from a re-analysis of the deposited data

How the results depend on the processing

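The floor bears on few members: with the floor at the 98th percentile 1 member was at least 2-fold lower, and with log2(signal + 64) there were 0. Quantile normalization gave medians of 0.096 for all members, 0.061 for the large and 0.14 for the small subunit, with 7 members lower and 11 at least 25% higher, and put Rpl27a (-0.019), Rpl7a (-0.057), Rps2 (-0.094), Rps24 (-0.021) and Rps28 (-0.083) below 0 and Rps29 at 0. Equal medians left 12 at least 25% higher and 4 lower, with Rpl27a at -0.046 and Rpl7l1 at -0.057, and turned assembly factors (-0.063), elongation factors (-0.040) and growth control (-0.019). Loess scaling left 12 at least 25% higher and elongation factors at -0.031. Averaging a gene's probe sets gave 5 members at least 2-fold higher, Rpl7l1 at -0.0095 and growth control at -0.13. Without probe sets that can match several transcripts, 23 members were left: 12 were higher by 25% or more and 7 by 2-fold or more, the small subunit median was 0.62 and Rps20 was at -0.91. Equal hybridisation controls, added after the data were seen, gave medians of 0.038, -0.013 (large) and 0.085 (small), 21 members lower, 5 at least 25% higher and 18S at -2.27. The members that turned were Rpl14 (-0.16), Rpl19 (-0.021), Rpl27 (-0.029), Rpl27a (-0.20), Rpl37a (-0.0046), Rpl4 (-0.037), Rpl41 (-0.052), Rpl6 (-0.052), Rpl7 (-0.071), Rpl7a (-0.10), Rpl7l1 (-0.21), Rpl8 (-0.10), Rps15 (-0.0064), Rps2 (-0.14), Rps24 (-0.054), Rps26 (-0.0055), Rps28 (-0.11), Rps29 (-0.055) and Rps6 (-0.029), and the lists that turned were assembly factors (-0.22), RNA polymerase I (-0.14), elongation factors (-0.20), other TOP mRNAs (-0.017) and growth control (-0.18). With shared probe sets included, 1 member, Rpl3l, was lower, so 1 was 20% or more lower and 1 lower by 2-fold or more; 1 was higher by 2-fold or more, and Rpl39 was at 0.13. Of the 47 members, 26 kept their direction under every alternative that gave them a value. The causes were not tested. No paired analysis was possible because each group has 1 array.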

Other observations

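Regulators of growth and markers of dividing cells were also read, since ribosome production follows growth. All 13 measured proliferation genes had higher signals on the EiPS array (background 56.3%), the median difference being 0.43 on the log2 scale. Tyms, which makes thymidylate, had signals of 13.9, under the floor, and 72.8, at least 2.86-fold higher, so it could count in this direction only. Rrm1, a ribonucleotide reductase subunit, had 493 and 508. With equal hybridisation controls the median was 0.15. Of 12 measured genes of growth control 7 were higher (background 56.3%) and 5 lower (background 43.7%), with a median of 0.11. Myc, a driver of ribosomal protein transcription, had 271 and 328, Eif4ebp2, an mTOR target, 266 and 411, and Rheb, the mTOR activator, 3978 and 2894. Of 7 measured leukocyte markers 5 were higher (background 56.3%), with a median of 0.43: Cd74 had 681 and 1666, and Itgam was 1.23-fold lower.

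Rps4l, a copy of Rps4x that matches the naming rule but is annotated as a transcribed pseudogene, was left out of the 47 genes. Its 1 probe set had signals of 486 for B6 ES and 1486 for EiPS, 3.06-fold higher, where Rps4x was 1.31-fold higher.

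Of 102 probe sets shared between a ribosomal protein gene and other symbols, 82 had a mean signal of at least 1000. Of these 80 were higher, with a median of 0.35, and the 2 that were lower both belong to Rpl5.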
